A study of Mus musculus with 6 samples.

Results

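Forkhead genes encode transcription factors that share one DNA-binding domain, the forkhead or winged-helix domain, and that are sorted into lettered subfamilies by its sequence. Here they were taken as every gene of the deposited table whose symbol is *Fox*, a letter from a to s, a number and at most 1 further letter, which gave 29 of 18537 genes. The annotation of the same genome build, GENCODE M1 on NCBI37/mm9, holds 44 such symbols, and the other 15 (*Foxa2*, *Foxb1*, *Foxb2*, *Foxd1*, *Foxd4*, *Foxe1*, *Foxe3*, *Foxf2*, *Foxh1*, *Foxi2*, *Foxi3*, *Foxl1*, *Foxl2*, *Foxn1* and *Foxr1*) are not analysed here. The 29 genes lie on 13 chromosomes. In the mammary gland, whose ducts have an outer basal layer and an inner luminal layer, *Foxa1* is known as the pioneer factor that opens chromatin for the estrogen receptor in hormone-sensing luminal cells, and *Foxm1* and the *Foxo* genes are known for opposing roles in cell division and cell cycle arrest. *Foxi1* is the master regulator of proton-secreting, mitochondria-rich cells of the kidney, inner ear and epididymis.

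The cells were luminal progenitors, sorted by flow cytometry (Lin-CD24loCD29+CD61+) from mammary glands of adult nulliparous mice. *Robo1+/+* and *Robo1-/-* animals came from *Robo1+/-* parents and are labelled as littermates (littermates or matched in age, by the methods of the study), and *Robo1-/-* is the germline null allele Robo1 tm1Matl, carried by every cell of the animal and not by the sorted cells alone. There were 3 poly(A)+ RNA libraries per genotype (*Robo1+/+* replicates gh03, gh09 and gh15, *Robo1-/-* replicates gh06, gh12 and gh18), each pooled from 2 animals, so that variation between single animals was not measured. Each deposited value is a read count divided by 1 size factor per library, here called the normalized value, and whole reads could be recovered from it. The recovered reads came to 9727191 to 17433868 per library, and 1 read was worth 0.784 to 1.46 normalized units.

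*Robo1* itself had normalized values of 289, 574 and 541 across *Robo1+/+* libraries (gh03, gh09, gh15) against 130, 214 and 177 across *Robo1-/-* (gh06, gh12, gh18). The genotypes did not overlap for the targeted gene. Luminal progenitor markers (8 genes, *Elf5*, *Kit* and *Krt8* among them) summed to between 87639 and 98860 in *Robo1+/+*. In *Robo1-/-* they summed to 106420 (gh06), 115873 (gh12) and 55951 (gh18), so the overlap of the genotypes rested on gh18. Without *Krt8*, a keratin of the luminal layer, the sums were 51655 to 57655 in *Robo1+/+* against 44770 to 73736 in *Robo1-/-*. The 8 basal markers summed to at most 1883 in any library. Libraries differed in how their values followed the GC content of the transcript. How far a gene in gh18 lay from its average elsewhere had a Spearman's rho of −0.81 with GC over 12453 genes (across genes, which are not independent replicates). The same measure was 0.17 to 0.61 in the other 5 libraries. For each of those 5 the average elsewhere included gh18, so the positive values do not show a GC trend of their own. Results that rest on gh18 are therefore given with and without it.

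To show the shared domain and the range of base composition within the family, coding sequence from the start of the forkhead domain is given for 5 members. *Foxa1* and *Foxi1* are shown as the highest member and the member placed among the others, and *Foxn2*, *Foxp4* and *Foxj1* as the tested members at the low and high ends of transcript GC content. Each is 120 bases from the first codon of the conserved opening of the domain, 5′ to 3′ on the coding strand, from GENCODE M1 transcripts on NCBI37/mm9, with G and C in capitals. The positions are chr12:58643793-58643912 (minus strand) for *Foxa1*, chr11:34107556-34107675 (minus) for *Foxi1*, chr17:88862400-88862519 (plus) for *Foxn2*, chr11:116195374-116195493 (minus) for *Foxj1* and chr17:48011602-48012339 (minus) for *Foxp4*. All lie in coding exons, the *Foxp4* stretch in more than 1 exon and each of the others within a single exon.
Foxa1: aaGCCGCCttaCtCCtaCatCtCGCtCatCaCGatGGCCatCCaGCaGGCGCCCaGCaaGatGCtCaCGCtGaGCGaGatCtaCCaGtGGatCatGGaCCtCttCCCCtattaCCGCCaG
Foxi1: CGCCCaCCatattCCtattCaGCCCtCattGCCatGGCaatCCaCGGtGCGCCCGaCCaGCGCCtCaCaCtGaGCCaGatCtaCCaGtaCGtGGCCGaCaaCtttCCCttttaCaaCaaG
Foxn2: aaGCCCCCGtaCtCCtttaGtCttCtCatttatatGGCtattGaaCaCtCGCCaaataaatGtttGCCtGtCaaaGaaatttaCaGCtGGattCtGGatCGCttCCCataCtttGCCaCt
Foxj1: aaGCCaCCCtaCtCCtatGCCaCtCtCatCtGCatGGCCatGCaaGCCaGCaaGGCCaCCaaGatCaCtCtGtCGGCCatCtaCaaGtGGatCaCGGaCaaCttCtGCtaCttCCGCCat
Foxp4: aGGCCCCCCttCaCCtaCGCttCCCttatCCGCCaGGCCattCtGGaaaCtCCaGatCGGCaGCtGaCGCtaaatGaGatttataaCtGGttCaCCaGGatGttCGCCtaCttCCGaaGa
G and C made up 41.7% of the stretch of *Foxn2* and between 52.5% and 57.5% of the other 4. Over whole transcripts the spread was wider. *Foxn2* had 41.2% GC, *Foxi1* 52.4%, *Foxa1* 54.2%, *Foxs1* 59.2%, *Foxj1* 61.4% and *Foxp4* 63.4%.

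Luminal progenitors held RNA of most forkhead genes with a row in the table. This was also so over all genes, of which 13692 of 18537 had enough reads to be tested. Of the 29, 20 had enough reads in enough libraries to be tested and are called expressed here, 4 reached 3 reads in at least 1 library but had too few to be tested (*Foxo6*, *Foxp2* and *Foxd3* among them), and 5 stayed under 3 reads in every library (*Foxc2*, *Foxa3*, *Foxd2*, *Foxf1a* and *Foxr2*). In single libraries, 20 (gh18) to 24 (gh12) of the 29 reached 3 reads. Levels of different genes are compared per kilobase of exon. On that scale the expressed members ran from *Foxn4* at a mean of 5.21 to *Foxa1* at 687, and the other members from *Foxr2* at 0.0477 to *Foxo6* at 3.30. The transcripts of the expressed members had a median GC content of 54.6%, the 4 low members 60.2% and the 5 under 3 reads 62.1%, against 50.6% over all genes with a GC value. The median exon length was 4458 bases for expressed members and 2619 bases for those under 3 reads, and a shorter gene yields fewer reads at the same level.

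**Figure D1:**
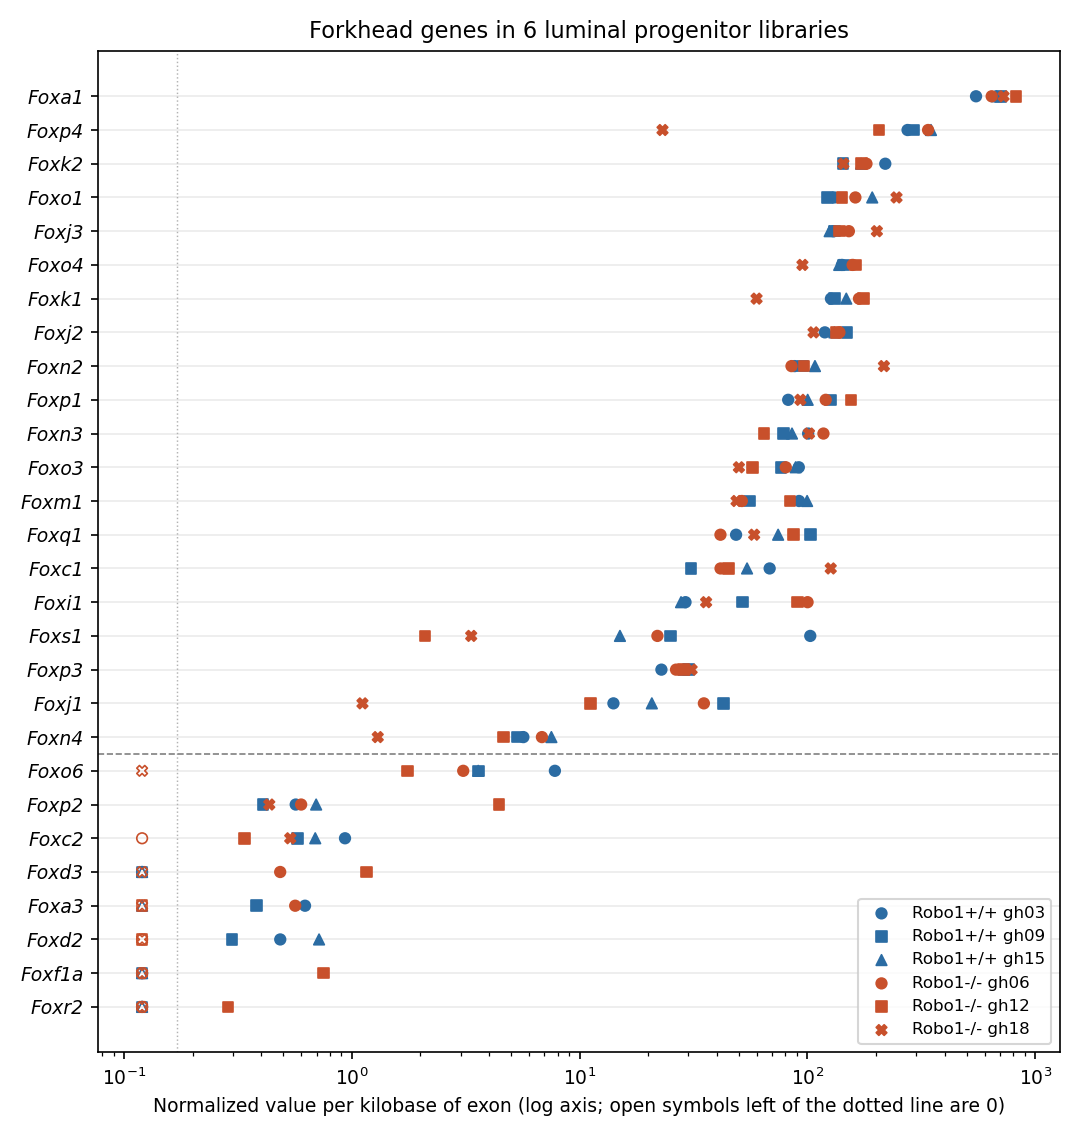
Normalized value per kilobase of exon (log axis) of the forkhead genes named in the text, one row per gene ordered by the mean of 6 libraries and one symbol per library, blue for *Robo1+/+* and red for *Robo1-/-*; open symbols left of the dotted line are values of 0, and the dashed line separates the 20 expressed genes from those with fewer reads. *Foxa1* stands apart from the rest in every library, *Foxi1* has rank 16, and gh18 (crosses) lies far to the left for *Foxp4*, *Foxj1* and *Foxn4*.

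*Foxa1* was the highest forkhead gene in all 6 libraries. Its normalized values were 1752, 2238 and 2159 across *Robo1+/+* libraries against 2052, 2625 and 2314 across *Robo1-/-*, or 549.5 to 824 per kilobase. It was above *Foxp4*, the next member by mean, in 6 of 6 libraries with no overlap of their ranges, and it alone made up 22.4% to 30.6% of the summed level per kilobase of the 29 genes. *Foxa1* stood at the 93.2 percentile of all genes of the table by level per kilobase. Its known partners were also present, with *Esr1*, the estrogen receptor, at 1346, 2430 and 1553 across *Robo1+/+* libraries against 2114, 2694 and 2050 across *Robo1-/-*. The sum of 7 mature hormone-sensing luminal markers, a list that holds *Foxa1* itself, was 32885 to 47902 in *Robo1+/+* and 48900 to 58588 in *Robo1-/-*. *Prlr*, the prolactin receptor, made up most of that sum (20097 to 37136), and without it the sums overlapped, at 11719 to 16877 against 12362 to 22032. In bulk samples more cells of a type and more RNA per cell cannot be told apart.

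Below *Foxa1*, 14 members lay in a band with means from 247 per kilobase for *Foxp4* to 61.1 for *Foxc1*, and no neighbours in the order had ranges apart. *Foxp4*, a repressor known from lung development, had normalized values of 1355, 1443 and 1717 across *Robo1+/+* libraries against 1668, 1017 and 114 across *Robo1-/-*, the last in gh18. *Foxk2*, one of a pair of factors that bind through a forkhead domain next to a phosphopeptide-binding domain, had values of 1228, 799 and 962 against 1015, 964 and 804. *Foxo1*, which insulin signaling keeps out of the nucleus, had values of 728, 682 and 1068 against 901, 788 and 1366. The genotypes overlapped in all 3. *Foxj3*, next in the order, is described with the comparison of the genotypes.

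By subfamily, the widely expressed groups were *Foxk*, *Foxo*, *Foxj2* with *Foxj3*, and *Foxp1* with *Foxp4*. *Foxk1* and *Foxk2* had means of 135 and 172 per kilobase. Of the *Foxo* genes, which restrain growth and respond to oxidative stress, *Foxo1* (166), *Foxo4* (140) and *Foxo3* (74.1) were expressed and *Foxo6* was not (3.30). *Foxj2* and *Foxj3* stood at 130 and 146, whereas *Foxj1*, which drives the motile cilia program, stood at 20.8. *Foxm1*, the activator of genes of mitosis, had a mean of 71.9 and *Foxn3*, a repressor linked to cell cycle checkpoints, 91.4. *Foxn2* was at 115, while *Foxn4*, known from retina and spinal cord, was at 5.21 and the lowest of the expressed members.

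Neighbouring genes did not always have like levels. *Foxq1*, known from hair and stomach epithelium, and *Foxc1*, known from vessels, eye and mesenchyme, lie 246 kb apart on chromosome 13 and had like means of 68.7 and 61.1 per kilobase. *Foxf1a* and *Foxc2*, both mesodermal factors, lie 29.2 kb apart on chromosome 8, and both stayed under 3 reads in every library. *Foxj3* and *Foxo6*, 638 kb apart on chromosome 4, had means of 146 and 3.30. Some levels are uncertain because exons are shared with another gene and the use of strand in counting is not given in the sources used here. Antisense exons of A530084C06Rik cover 1164 bases (41.6%) of *Foxq1*, and those of RP24-337A16.1 cover 674 bases (12.1%) of *Foxo1*.

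*Foxp3*, the defining factor of regulatory T cells, was present at a nearly constant level in these lineage-negative cells. Its normalized values were 90.3, 119 and 114 across *Robo1+/+* libraries against 105, 113 and 123 across *Robo1-/-*, and its highest library was 1.36-fold its lowest. Leukocyte markers were near the floor of detection. The 5 leukocyte markers with a row summed to 11.9 to 31.8 in any library, and *Ptprc*, the common leukocyte antigen, was at 0 in 4 libraries and at no more than 1.46 in the other 2. Exons of *Ccdc22* on the opposite strand cover 590 bases (14.9%) of the exons of *Foxp3*, those of *Ppp1r3f*, also opposite, 373 (9.4%), and those of 4930524L23Rik, on the same strand, 267 (6.8%). *Ccdc22* had a mean of 70.8 per kilobase, against 27.95 for *Foxp3*. How many reads counted for *Foxp3* came from these genes was not tested.

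*Foxi1*, which lies on chromosome 11 from 34104338 to 34108089 (minus strand, NCBI37/mm9, kgCluster3114), had rank 16 of the 29 forkhead genes, and 15 of the 20 expressed ones stood above it. Its mean was 55.9 per kilobase (range 27.9 to 100.1), which placed it at the 48.0 percentile of all genes and the 33.0 percentile of the tested genes. *Foxa1* stood 12.3-fold higher per kilobase. The order around *Foxi1* was not fixed, since *Foxc1* above it was higher in only 3 of 6 libraries and *Foxs1* below it was lower in 5 of 6, with overlapping ranges on both sides. Its rank among the 29 was 17, 15 and 17 across *Robo1+/+* libraries (gh03, gh09, gh15) against 11, 11 and 15 across *Robo1-/-* (gh06, gh12, gh18), and its share of the summed forkhead level per kilobase was 1.19%, 2.04% and 1.05% against 3.74%, 3.36% and 1.51%. Both gh06 and gh12 lay outside the *Robo1+/+* range on these measures, and gh18 lay within it.

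As normalized values, *Foxi1* was at 68.7, 122 and 65.7 across *Robo1+/+* libraries (85.5 ± 31.8, SD, n = 3) against 236, 213 and 84.6 across *Robo1-/-* (178 ± 81.6, SD, n = 3). These values rest on 54, 156 and 70 reads in *Robo1+/+* and 205, 233 and 58 in *Robo1-/-*. The genotypes overlapped, because gh18 lay between *Robo1+/+* replicates. The log2 difference was 0.98 ± 0.49 (SE), higher in *Robo1-/-*, with a two-sided exact permutation p of 0.2, where 0.1 is the smallest p that 3 against 3 libraries allow. In limma over all tested genes the unadjusted p was 0.086 and the Benjamini-Hochberg adjusted p 0.858. Without gh18 the difference was 1.44 with an unadjusted limma p of 0.0035 (adjusted p 0.936), and after the GC correction with all 6 libraries it was 1.11 with an unadjusted p of 0.023 (adjusted p 0.999). It was 0.71 (unadjusted limma p 0.237) without gh06, 0.78 (p 0.221) without gh12 and 0.85 (p 0.198) without gh03. It was 0.82 (unadjusted limma p 0.214) without gh15 and 1.26 (p 0.061) without gh09. The difference kept its direction in each of these, and its unadjusted call turned on gh18, on the GC correction and on the test used. With all 6 libraries and no GC correction, DESeq2 gave 1.06 (unadjusted p 0.034, adjusted p 0.994) and edgeR 1.05 (unadjusted p 0.059).

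Few of the genes known to act with or under FOXI1 in ion-transporting cells could be tested. Of 16 listed genes 9 had a row and 5 were tested. By limma 0 of the 5 passed an unadjusted p of 0.05 in either direction, against 1.69% of all tested genes. With 5 genes and that share, the count cannot show whether the group differs. The median log2 difference of the 5 was −0.35. *Atp6v1b1*, a proton pump subunit and a classical FOXI1 target, was abundant, at 3429, 5043 and 3179 across *Robo1+/+* libraries against 4218, 5701 and 1097 across *Robo1-/-*. *Atp6v1b1* was lowest of all libraries in gh18, whereas *Foxi1* in gh18 lay between *Robo1+/+* replicates. The log2 difference of *Atp6v1b1*, −0.35, became 0.37 without gh18 and −0.13 after the GC correction. Other listed genes with wider expression were also abundant, with *Atp6v1a*, another pump subunit, at 2721 to 4592 over the 6 libraries, *Car2*, a carbonic anhydrase, at 693 to 1386 and *Atp6v1c2*, a pump subunit, at 143 to 811. *Atp6v0a4* was at 4.58 to 19.1, and the 4 listed genes with a row that were not tested were lower still in most libraries. *Ascl3* and *Bsnd* were at no more than 0.94 normalized units in any library, *Slc4a9* at no more than 2.81 and *Cftr* at no more than 6.36 outside gh18, where it was 26.3.

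Between the genotypes, 0 of the 20 tested forkhead genes passed an adjusted p of 0.05 by limma, and over all 13692 tested genes the share was 0%. Adjusted p-values of the 20 ran from 0.858 to 0.956. At an unadjusted p of 0.05, 1 of the 20 (5%, *Foxs1*) passed, against 1.69% of all tested genes, and edgeR on the same genes gave 221 at that threshold and 0 past the adjusted one, and DESeq2, run on 18531 genes, gave 335 and 1. The genotypes did not overlap for 1 of the 20 (5%, *Foxj3*), against 9.41% of all tested genes. Differences were small for most members, with 15 of the 20 under 0.5 in absolute log2 difference and a median absolute difference of 0.31, against 0.29 over all tested genes. In sign, 9 of the 20 were higher in *Robo1-/-*, 10 without gh18 and 13 after the GC correction.

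**Figure D2:**
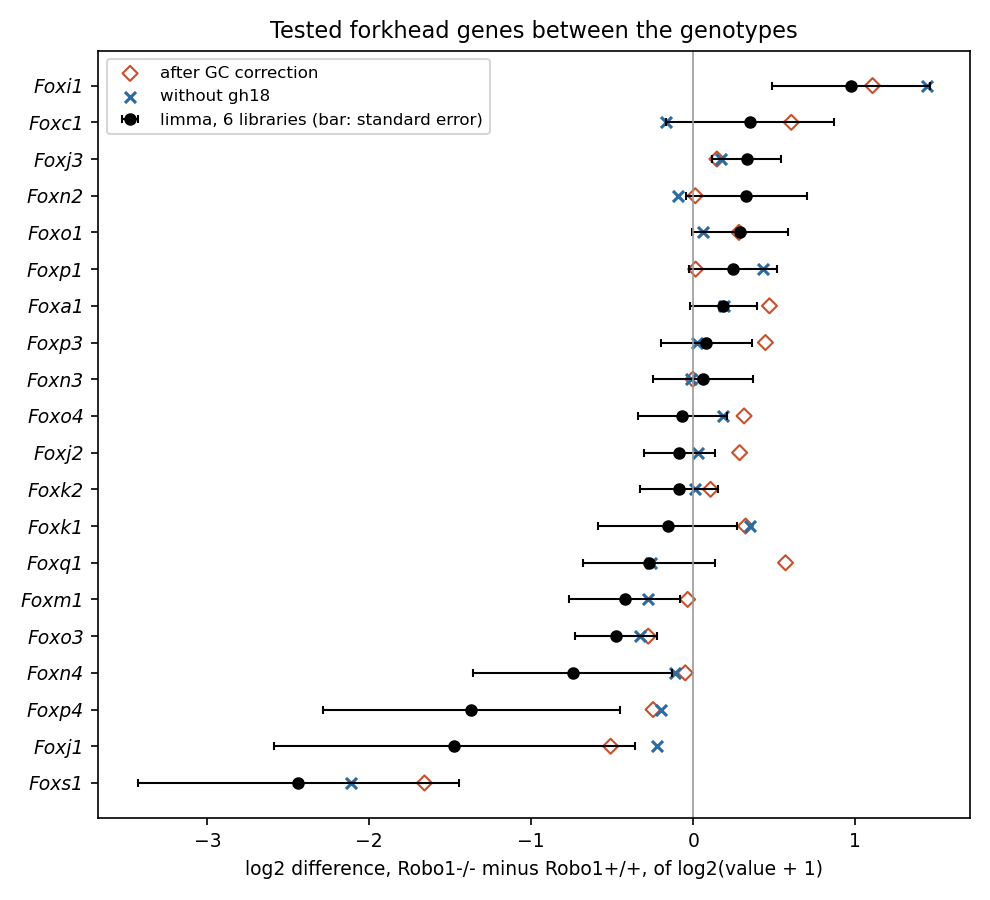
Log2 difference (*Robo1-/-* minus *Robo1+/+*, of log2(value + 1)) of the 20 tested forkhead genes with its standard error from limma (black), beside the difference after the GC correction (red diamonds) and without gh18 (blue crosses). *Foxi1* (0.98) and *Foxs1* (−2.44) are the extremes, and *Foxp4* and *Foxj1* sit near −1.4 with all libraries and within 0.25 of 0 without gh18.

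*Foxs1*, a factor known from pericytes and peripheral neurons, was lower in *Robo1-/-*. It lies on chromosome 2 from 152757634 to 152758944 (minus strand, kgCluster15157). Its normalized values were 135, 32.9 and 19.7 across *Robo1+/+* libraries (62.5 ± 63.0, SD, n = 3) against 28.8, 2.75 and 4.38 across *Robo1-/-* (12.0 ± 14.6, SD, n = 3), from 106, 42 and 21 against 25, 3 and 3 reads. One *Robo1+/+* library (gh03) was far above the rest, gh06 lay within the *Robo1+/+* range, and gh12 and gh18 were at the floor of 3 reads. The log2 difference was −2.44 ± 0.99 (SE), with an unadjusted limma p of 0.043, an adjusted p of 0.858 and an exact permutation p of 0.2. It was −1.65 (unadjusted limma p 0.147) without gh03, −2.65 (p 0.067) without gh09, −1.85 (p 0.128) without gh12, −2.11 (p 0.096) without gh18 and −1.66 (p 0.125) after the GC correction, so the call was lost in each of these. Pericyte markers (4 genes) summed to 92.9, 36.8 and 74.1 across *Robo1+/+* libraries against 41.4, 29.3 and 143 across *Robo1-/-*, with gh03 high and gh18 higher still, where *Foxs1* was near 0. *Pdgfrb*, a defining pericyte gene, was at no more than 2.35 in any library. Nerve sheath markers, nearly all of them *Sox10*, summed to 1368 to 1844 in *Robo1+/+* and 473 to 1459 in *Robo1-/-*, with gh03 the highest library and gh18 the lowest, and their part in the result was not tested.

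*Foxj3* was the one tested member whose genotypes did not overlap. Its normalized values were 1402, 1418 and 1353 across *Robo1+/+* libraries (1391 ± 34.0, SD, n = 3) against 1642, 1494 and 2180 across *Robo1-/-* (1772 ± 361, SD, n = 3). All 3 *Robo1-/-* libraries lay above all 3 *Robo1+/+* libraries, with gh18 the highest. The log2 difference was 0.33 ± 0.21 (SE), with an exact permutation p of 0.1, the smallest that this design allows, and an adjusted limma p of 0.858. Its transcript is GC-poor (46.2%), and the difference was 0.15 after the GC correction and 0.17 without gh18.

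**Figure D3:**
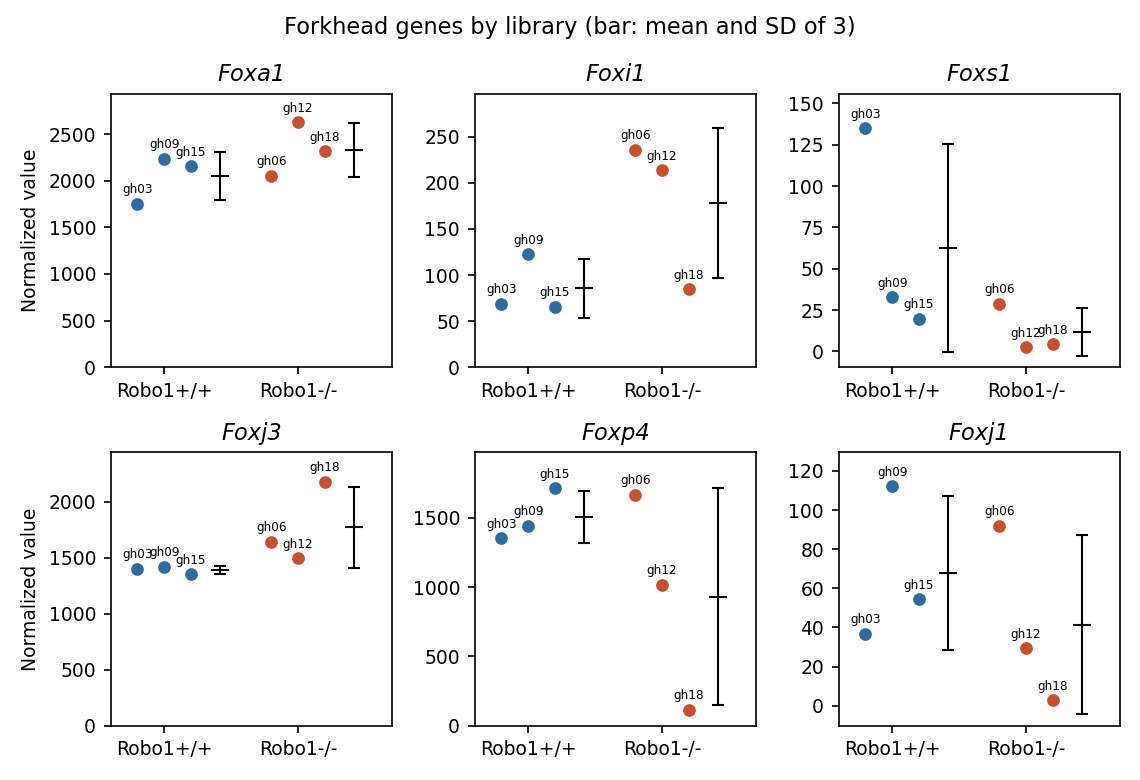
Normalized value of 6 forkhead genes in each library, by genotype, with the mean and SD of 3 libraries beside the points; the error bar may reach below 0. *Foxi1* overlaps through gh18, *Foxs1* is highest in gh03, *Foxj3* does not overlap, and *Foxp4* and *Foxj1* are lowest in gh18.

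For several members the difference between the genotypes was near 0 without gh18. *Foxp4* had a log2 difference of −1.37 ± 0.92 (SE), which was −0.20 without gh18 and −0.25 after the GC correction. *Foxj1* had normalized values of 36.9, 112 and 54.4 across *Robo1+/+* libraries against 92.1, 29.3 and 2.92 across *Robo1-/-*, a log2 difference of −1.47 ± 1.11 (SE), −0.22 without gh18 and −0.51 after the correction. *Foxn4* had values of 19.1, 18.0 and 25.3 against 23.02, 15.6 and 4.38, and its difference of −0.74 became −0.11 without gh18. All 3 have GC-rich transcripts, at 63.4%, 61.4% and 58.3%. At the other end, *Foxn2* (41.2% GC) had values of 646, 699.9 and 794 against 626, 709.9 and 1593, and its difference of 0.33 was −0.09 without gh18. *Foxc1* did not follow the same order, since at 53.9% GC it had its highest value in gh18, with 272, 123 and 217 across *Robo1+/+* libraries against 166, 179.5 and 505 across *Robo1-/-*. The log2 difference of *Foxc1* was 0.35 with all libraries, −0.17 without gh18 and 0.61 after the GC correction.

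Over the 20 tested members, the distance of gh18 from the average over the other 5 libraries had a Spearman's rho of −0.73 with transcript GC content, given as a description because the points share 1 library. That distance, in log2(value + 1), was −3.89 for *Foxj1*, −3.63 for *Foxp4*, −2.24 for *Foxs1*, and 1.20 for *Foxn2* and 1.44 for *Foxc1* at the top. In 8 of the 20 members gh18 was the lowest of the 6 libraries and in 5 it was the highest. The ratio of the highest to the lowest library was under 2 for 9 of the 20 members, and for 15 of the 20 without gh18. For *Foxp4* that ratio went from 15.1 to 1.69 and for *Foxj1* from 38.4 to 3.82 when gh18 was left out. The counts of members are given without the share over all tested genes, where gh18 also followed GC (rho −0.81). They therefore cannot show whether forkhead genes differ in this from other genes.

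**Figure D4:**
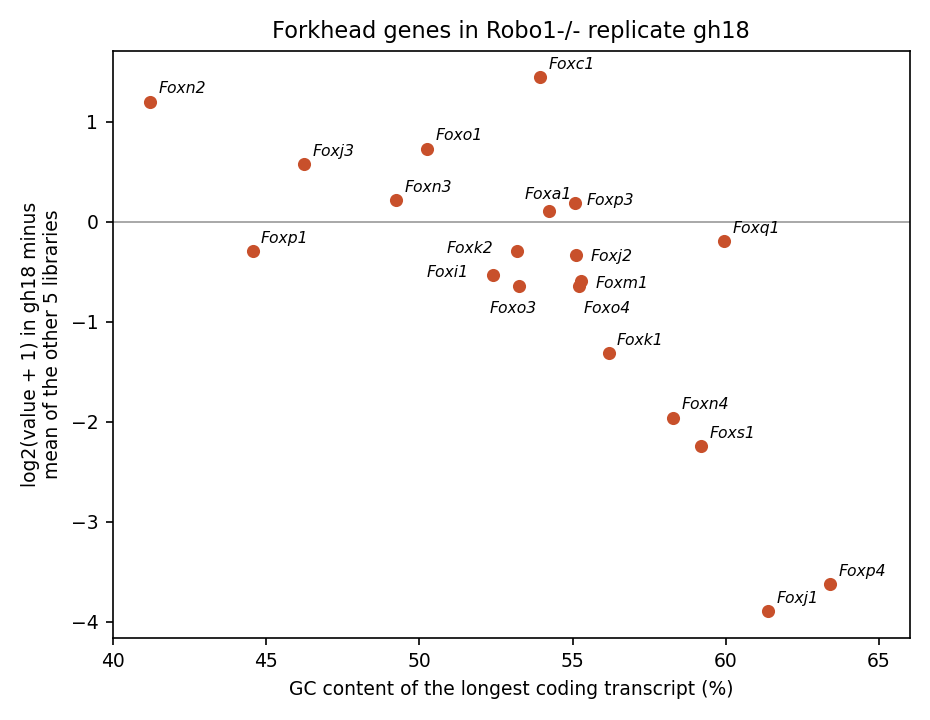
Distance of gh18 (*Robo1-/-*) from the average over the other 5 libraries, in log2(value + 1), against the GC content (%) of the longest coding transcript, one point per tested forkhead gene. *Foxj1*, *Foxp4*, *Foxs1* and *Foxn4*, all above 58% GC, lie lowest, *Foxq1*, also above 58% GC, lies near 0 (−0.20), and *Foxc1* and *Foxn2* lie highest.

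Without gh18, 2 of the 20 members passed an unadjusted p of 0.05, against 4.23% of all tested genes. These were *Foxi1* and *Foxk1*, a regulator of glycolysis and autophagy genes. *Foxk1* had values of 944, 977 and 1102 across *Robo1+/+* libraries against 1253, 1313 and 445 across *Robo1-/-*, the last in gh18, and its log2 difference was −0.16 with all libraries and 0.35 without gh18 (unadjusted limma p 0.043, adjusted p 0.936). After the GC correction 1 of the 20 passed (*Foxi1*), against 1.6% of the 12453 genes with a GC value. *Foxi1* was the one member that passed in both, with adjusted p-values by limma of 0.936 and 0.999. Both fits share libraries, and the study had already listed *Foxi1* as upregulated from these data. Passing in both is therefore not independent support. Without gh06, 4 of the 20 passed, against 6.42% of all tested genes. These were *Foxs1* (−3.35), *Foxj1* (−2.51), *Foxp4* (−2.13) and *Foxo3* (−0.67), all lower in *Robo1-/-*, with every adjusted p at 0.549 or above.

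The remaining tested members differed by less than 0.5 on the log2 scale. Of the *Foxo* genes, *Foxo3* had values of 660, 552 and 639.8 across *Robo1+/+* libraries against 579, 414 and 360 across *Robo1-/-*, a log2 difference of −0.48 ± 0.26 (SE). *Foxo1* had a log2 difference of 0.29 and *Foxo4* of −0.07. Of the cell cycle factors, *Foxm1* had a difference of −0.42 and *Foxn3* of 0.06. *Foxp1*, a repressor known from lymphocytes and luminal cells, had 0.25 and *Foxp3* 0.08. The other log2 differences were 0.19 for *Foxa1*, −0.08 for *Foxj2*, −0.09 for *Foxk2* and −0.27 for *Foxq1*. None of these members passed an unadjusted p of 0.05, and for *Foxj2*, *Foxk2*, *Foxn3*, *Foxo4* and *Foxq1* the sign turned after the GC correction.

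Genes that forkhead factors are known to control were counted beside the members. Of 24 tested FOXO target genes 3 had an unadjusted limma p under 0.05, all higher in *Robo1-/-*, and 0 passed an adjusted p of 0.05, with a median log2 difference of 0.13. They were *Gadd45a*, a DNA damage and growth arrest gene (0.82, p 0.010), *Cited2*, a coactivator-binding regulator (0.84, p 0.023), and *Bnip3*, a mitophagy receptor (0.75, p 0.045). *Gadd45a* was at 975, 1302 and 1129 across *Robo1+/+* libraries against 2504, 1800 and 1733 across *Robo1-/-*, with no overlap. All 21 FOXM1 target genes were tested, and 0 passed in either direction, with a median of 0.08. Of 14 tested FOXA1 partner and hormone-sensing genes 1 passed, *Pgr*, the progesterone receptor, at 1721, 3003 and 3394 across *Robo1+/+* libraries against 5481, 4124 and 3752 across *Robo1-/-* (0.76, unadjusted limma p 0.044, adjusted p 0.858). Over all tested genes the share past this threshold was 1.69% and the median log2 difference 0.00.

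The low members differed between single libraries. *Foxp2*, known from brain and lung, had 6, 7 and 10 reads in *Robo1+/+* and 7, 65 and 4 in *Robo1-/-*, the 65 in gh12, or normalized values of 7.63, 5.49 and 9.38 against 8.06, 59.5 and 5.84. *Foxd3*, a neural crest factor, had a read in gh06 and 3 in gh12 and none elsewhere. Both had more reads in gh12 than in any other library, and the other libraries of its genotype did not share this. *Foxo6*, a *Foxo* gene known from brain, had 16, 12 and 10 reads in *Robo1+/+* and 7, 5 and 0 in *Robo1-/-*, and the genotypes did not overlap. Its transcript has 69.1% GC, and it had too few reads to be tested. Over all tested genes, the genotypes did not overlap for 9.41%.

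The 5 members under 3 reads were *Foxc2*, *Foxd2* and *Foxf1a* of the mesodermal factors, *Foxa3* of the *Foxa* genes, known from liver and gut, and *Foxr2*, known from testis. *Foxc2* had 2 reads in each *Robo1+/+* library and 0, 1 and 1 in *Robo1-/-*. *Foxd2* had 1, 1 and 2 reads against none, and *Foxa3* had 1 read in each of gh03, gh09 and gh06. *Foxf1a* and *Foxr2* had 1 read each, in gh12. At this depth a level below 3 reads, which is 2.35 to 4.38 normalized units depending on the library, could not be told from none.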

How the data were processed

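Poly(A)+ RNA of sorted luminal progenitors, 3 libraries per genotype and 2 animals per library, was grouped by the sample labels. The deposited values are a normalized signal per gene. The authors trimmed reads to 75 bases, filtered out repeat reads by bowtie2, aligned what remained with TopHat against mouse NCBI37/mm9, and divided read counts by DESeq size factors. The counting tool, its use of strand and its treatment of multiply mapped reads are not given in the sources used here, nor are batches. From these signal values whole reads were recovered for 100% of values (tolerance 0.006), which gave 9727191 to 17433868 reads per library. A floor of 3 reads covers counting error only.

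The test was limma (version 3.58.1, R 4.3.3) on log2(value + 1), with its trended prior, on 13692 genes that passed filterByExpr (edgeR version 4.0.16), and p-values were adjusted over all of them by the Benjamini-Hochberg method. Fold changes on this scale understate the change of low genes. Exact permutation tests over the 6 libraries were two-sided. Alternatives were edgeR and DESeq2 (version 1.42.0) on recovered reads, limma-voom, TMM and upper-quartile scaling, other filters and pseudocounts, a GC correction (a lowess curve of each library's deviation on transcript GC subtracted), each library left out, and, chosen after seeing the data, the GC correction without gh18. Scripts were tested on simulated data. Exon length, GC and positions come from GENCODE M1, matched by symbol for 88.4% of 18537 genes. All tested members are named, and 1 member outside the tested group is not reported here. Values per library are printed by rule for *Foxi1*, the 5 highest members, members past an unadjusted p of 0.05 or without overlap and those present in some libraries only, and for further members chosen after their values were seen. The members and the gene and marker lists, which come from general knowledge, were chosen with earlier results of these data known.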

Additional observations from a re-analysis of the deposited data

How the results depend on the processing

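Over the alternative settings, 250 of 285 differences of single genes other than *Foxi1* kept their direction and their side of the unadjusted threshold, and 25 turned in sign. The sign of 11 of the 20 tested members, *Foxi1* and *Foxs1* among them, held under every setting run. The number of expressed members was 20 or 21 under other definitions of expression and 20 to 22 with single libraries left out, and the rank of *Foxi1* was 16 under other definitions of length and 15 without gh03 or gh18. The number of members past an unadjusted p of 0.05, 1 by limma, was 0 with edgeR, 2 with DESeq2, 2 with all genes of at least 1 read (*Foxs1* and *Foxd2*), 2 with the GC correction and gh18 left out together (chosen after seeing the data), and 0 to 4 with single libraries left out. It was 0 without gh03, gh09 or gh12, where 130, 168 and 131 of 13692 genes passed, and 4 without gh06, where 879 passed. The difference of *Foxi1* was past that threshold with DESeq2 (1.06), the GC correction (1.11) and that correction with gh18 left out (1.44), and was 0.71 to 1.44 with single libraries left out, past it without gh18 alone (1.44). The median difference of the tested members, −0.08, was 0.13 after the GC correction.

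After the GC correction the sign turned for *Foxj2* (0.29), *Foxk1* (0.32), *Foxk2* (0.11), *Foxn3* (−0.0021), *Foxo4* (0.31) and *Foxq1* (0.57). With gh18 also left out it turned for *Foxc1* (−0.16), *Foxj2* (0.054), *Foxk1* (0.39), *Foxk2* (0.018), *Foxn2* (−0.14), *Foxn3* (−0.037) and *Foxo4* (0.21). With single libraries left out, the difference ran from −0.17 to 0.63 for *Foxc1*, from −0.16 to 0.032 for *Foxj2*, from −0.43 to 0.35 for *Foxk1*, from −0.23 to 0.074 for *Foxk2*, from −0.092 to 0.58 for *Foxn2*, from −0.12 to 0.31 for *Foxn3*, from −0.20 to 0.18 for *Foxo4* and from −0.040 to 0.16 for *Foxp3*. The cause was not tested. The labels state no pairing of the libraries, and the genotypes share no replicate number. No paired analysis was run.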

Other observations

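Markers of cell types that the gate should leave out were low beside those of luminal cells. Fibroblast markers (6 genes) summed to 704 to 832 in *Robo1+/+* and 307 to 1039 in *Robo1-/-*, and the 5 endothelial markers with a row to 43.1 to 75.2 against 27.7 to 90.7. The 2 erythroid markers with a row stayed at 63.5 or below, and the 1 adipocyte marker with a row at 3.92 or below. The 8 basal markers summed to 573 to 1883 in *Robo1+/+* and 773 to 1335 in *Robo1-/-*. *Foxc1*, *Foxc2*, *Foxf1a* and *Foxs1* are known from cells of these other types, and which cells their reads came from was not tested.

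The summed level of the 25 FOXO target genes with a row was 33125 to 40649 in *Robo1+/+* and 43877 to 48737 in *Robo1-/-*, with no overlap between the genotypes. That separation rests on *Trp53inp1*, a stress-induced regulator of autophagy (6116 to 22626 over the libraries). Without it the sums overlapped, at 24474 to 27009 against 26112 to 29516. The summed level of the 21 FOXM1 target genes was 7323 to 12297 against 6873 to 15577. In gh18 the sum was highest (15577) and *Foxm1* itself lowest (268), whereas among the other 5 libraries the 3 with the highest sums (gh03, gh15 and gh12) also had the highest *Foxm1* values.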
